A study of Mus musculus with 10 samples.

Results

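The genes described here encode subunits of the last complexes of mitochondrial respiration: complex III, complex IV and ATP synthase, together with cytochrome c. They were chosen by symbol in the platform annotation: every symbol starting with Uqcr, Cox4 to Cox8 or Atp5, plus Cyc1 and Cycs. This gave 44 genes, measured by 87 of the 45037 probe sets that are no array controls. Each of the 87 carried a single gene symbol.

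The arrays measured RNA of the gastrocnemius, a calf muscle, from 5 Skn-1 deficient and 5 wild type male mice aged 12 to 16 weeks. The missing gene, Skn-1 or Pou2f3, encodes a transcription factor known from taste and tuft cells. The deficient line came from a mixed 129 and C57BL/6J stock that had over 10 backcross generations to C57BL/6J, and the same mixed background is given for both groups. All mice ate chow and were fasted for 18 h before dissection, so both groups are fasted and no fed muscle was included. The allele, and whether it acts in a single tissue, are not described in the labels. The labels call the 5 arrays of a genotype biological replicates. They are named KO1 to KO5 for Skn-1 deficient and WT1 to WT5 for wild type mice below, and numbers do not pair mice.

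Complex III takes electrons from ubiquinol and passes them to cytochrome c, a small soluble carrier. Complex IV takes them from cytochrome c, reduces oxygen to water and, like complex III, pumps protons across the inner mitochondrial membrane. ATP synthase lets protons back through its membrane part, Fo, and uses the flow to drive its catalytic part, F1, which makes ATP. A few complex IV subunits exist as isoforms that differ between tissues. Cox6a2, Cox7a1 and Cox8b are the heart and skeletal muscle forms of subunits whose liver-type forms are Cox6a1, Cox7a2 and Cox8a. Cox7a2l, which resembles the Cox7a subunits, is known for its part in joining complexes III and IV into supercomplexes.

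Promoter sequence was available for 33 of the 44 genes from RefSeq (GRCm38.p6), as a window of 250 bases before and 50 bases after the start. The stretches below are the 250 bases before the start of 5 genes, on the gene's own strand. Atp5l is shown because it had the clearest difference between the groups, Cox8b and Atp5b because they stand for opposite patterns over the arrays, and Cox6a1 and Cox7a1 as a liver-type and a muscle-type complex IV isoform. Capitals mark matches, on either strand, to any of the motifs searched: GCGCANGCG for NRF1, TCAAGGTCA for estrogen-related receptors, CCGGAAGT for GABP and AAGATGGC for YY1. These are factors known to act on genes of respiration.
Atp5l, chr9:44920743-44920992, minus strand: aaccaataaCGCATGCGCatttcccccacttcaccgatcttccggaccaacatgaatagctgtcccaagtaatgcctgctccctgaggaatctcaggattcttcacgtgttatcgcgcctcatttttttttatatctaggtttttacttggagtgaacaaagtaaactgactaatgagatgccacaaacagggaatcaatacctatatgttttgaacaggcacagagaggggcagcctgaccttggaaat
Cox8b, chr7:140900447-140900696, minus strand: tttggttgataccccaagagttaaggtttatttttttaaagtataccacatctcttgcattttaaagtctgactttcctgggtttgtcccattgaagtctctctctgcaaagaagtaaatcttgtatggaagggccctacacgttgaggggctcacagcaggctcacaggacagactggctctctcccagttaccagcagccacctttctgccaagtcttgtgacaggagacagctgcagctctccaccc
Atp5b, chr10:128083057-128083306, plus strand: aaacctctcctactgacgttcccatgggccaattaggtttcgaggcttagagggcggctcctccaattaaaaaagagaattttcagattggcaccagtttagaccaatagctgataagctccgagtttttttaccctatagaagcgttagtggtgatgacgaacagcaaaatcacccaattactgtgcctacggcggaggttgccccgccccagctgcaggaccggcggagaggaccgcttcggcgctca
Cox6a1, chr5:115348959-115349208, minus strand: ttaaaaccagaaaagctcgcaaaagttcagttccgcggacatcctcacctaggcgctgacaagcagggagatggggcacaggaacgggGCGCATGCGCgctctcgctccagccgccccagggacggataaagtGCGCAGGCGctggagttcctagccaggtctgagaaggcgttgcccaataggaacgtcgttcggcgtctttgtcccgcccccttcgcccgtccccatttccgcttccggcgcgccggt
Cox7a1, chr7:30183921-30184170, plus strand: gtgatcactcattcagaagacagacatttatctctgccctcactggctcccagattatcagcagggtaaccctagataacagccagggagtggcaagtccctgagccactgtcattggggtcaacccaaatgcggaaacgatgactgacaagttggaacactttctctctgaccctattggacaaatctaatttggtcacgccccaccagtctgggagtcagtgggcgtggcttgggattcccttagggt

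The Atp5l stretch holds 1 match to the NRF1 motif. Cox6a1 holds 3, of which 2 overlap in a palindrome. The stretches of Cox8b, Atp5b and Cox7a1 hold no match to the 4 motifs. The windows of the other liver-type genes, Cox7a2 and Cox8a, hold no NRF1 match either, so Cox6a1 does not stand for that type. Over the whole windows, the NRF1 motif was in 11 of 33 subunit genes (33.3%) against 7.03% of all 27025 genes with a promoter window. A gene with several windows was counted if any of them held the motif. The GABP motif was in 4 (12.1% against 4.31%), the YY1 motif in 3 (9.09% against 3.19%) and the estrogen-related receptor motif in 1 (3.03% against 0.466%). These shares describe the letters of the windows and were not tested.

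The deposited values are on a scale taken as log2, whose base is not stated, and differences are given as Skn-1 deficient minus wild type. In this table most probe sets hardly vary: only 13.8% of all 45037 had a standard deviation (SD) above 0.01 over the 10 arrays. Among the subunit probe sets 46 of 87 did (52.9%), and they cover 30 of the 44 genes. These are called varying below. The other 41 are called low-variation, and their differences are not read as fold changes. The threshold falls in a wide gap among the subunits: the lowest SD above it was 0.0177, for Cycs, and the highest below it was 0.00291, for a probe set of Uqcrb. The low-variation probe sets were not only dim ones. Bright probe sets of Cox4i1 (mean 12.53), Cox5a (12.80), Cox6c (12.78), Atp5c1 (12.73) and Atp5g3 (12.64) were among them, and each of these genes had no varying probe set. The same holds for the Rieske iron-sulphur protein gene Uqcrfs1 and for Atp5h, Atp5j and Atp5md.

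Of the 87 probe sets, 14 lay below the array medians of 6.23 to 6.24. All probe sets of Cox4i2, Cox6b2 and Cox7b2, isoforms known from lung or testis, were among those 14. The Cox7c probe sets reached a mean of only 6.44, and those of the testis isoform Cox8c 6.94. Names of 24 subunit probe sets end in _s_at or _x_at, which the maker uses for probes that may match several transcripts, so their signal may be shared with related genes or pseudogenes.

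Several arrays carried transcripts of other tissues, in both groups. Of 11 B and T lymphocyte genes 10 were measured, 8 of them varied, and their mean level ran from 6.04 to 7.87 over the Skn-1 deficient arrays and from 6.06 to 7.85 over the wild type arrays. The high ends belong to KO5 and WT3, where the B cell gene Cd79b stood at 8.38 and 8.28 against 5.41 to 5.62 on the other arrays. All 12 epidermis and hair genes varied, with mean levels of 5.86 to 7.36 in deficient and 5.87 to 7.17 in wild type arrays, and KO1, KO4, WT1 and WT3 were the high ones. Krt5 and Dsp were high in all of these arrays, but other genes of the list were not. Krt27 was 9.35 in WT1 and 8.34 in WT3 but 5.71 in KO1 and 5.48 in KO4. Krt10 was 8.90 in KO1 and 9.17 in KO4 but 7.07 in WT1 and 7.82 in WT3. Adipocyte genes, 5 of 7 measured and all 5 varying, ran from 8.65 to 9.49 in deficient and from 8.40 to 9.64 in wild type arrays, and were highest in WT3, KO5 and KO4. Of 3 liver genes 2 varied, and their mean level was 6.82 in WT1 against 5.61 to 6.04 on the other arrays. Slow-fibre genes, 7 of 7 measured, ran from 9.43 to 9.76 in deficient and from 9.62 to 10.00 in wild type arrays. All 7 skeletal muscle genes were measured, and the 4 that varied had a mean level of 12.28 to 12.54 over the arrays. The single Pou2f3 probe set was low-variation, with a mean of 6.47 in both groups, and gives no check of the genotype. In whole muscle, fewer cells of a type and less RNA per cell cannot be told apart.

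No subunit probe set differed between genotypes at an adjusted p under 0.05 (limma with Benjamini-Hochberg adjustment over all 45037 probe sets), where 0.191% of all probe sets and 0.966% of all varying ones did. At an unadjusted p under 0.05 there were 4, against 6.62% of all probe sets. Of these 4, 3 vary, all with the lower mean in Skn-1 deficient muscle, namely Atp5l and 2 probe sets of Cox7a2l. Among all varying probe sets 9.92% had such a p, and 2.48% had it with a lower mean in deficient muscle. The last of the 4 is a low-variation probe set of Cox5a (unadjusted p of 0.0486, adjusted p = 0.752 by limma). The smallest adjusted p of the family was 0.179, for Atp5l. With single arrays left out the count of 4 ran from 1 to 5, and it was 1 without KO2 or WT1.

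Differences were small and leaned to lower values. Of the 46 varying probe sets, 34 had a lower mean in Skn-1 deficient muscle and 12 a higher one, and the median difference was -0.032. Over all varying probe sets 50.8% had a lower mean and the median difference was -0.0021. Bright probe sets leaned the same way in general: of those with a mean above 11, 61.5% were lower, and among subunits of that brightness 24 of 35. This lean rested largely on WT1. There 30 of the 46 varying subunit probe sets had their highest value, against 16.5% of all varying probe sets. WT1 stood apart beyond the subunits: it was the lowest array for 25.2% of all varying probe sets. Its median deviation over these was -0.094, the largest in size of any array. WT1 is also the array with the highest liver genes and one of those with epidermis genes, and their part in the lean was not tested. Without WT1, 23 of 46 were lower and the median difference was -0.00033, and without KO5 the median was -0.018. Without the 2 lymphocyte arrays 38 were lower. Without the 5 arrays that carried lymphocyte or epidermis genes, 23 were lower and no probe set had an unadjusted p under 0.05. Only KO2 and KO3 then remained against WT2, WT4 and WT5, too few arrays to read the missing low p as a result.

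**Figure D1:**
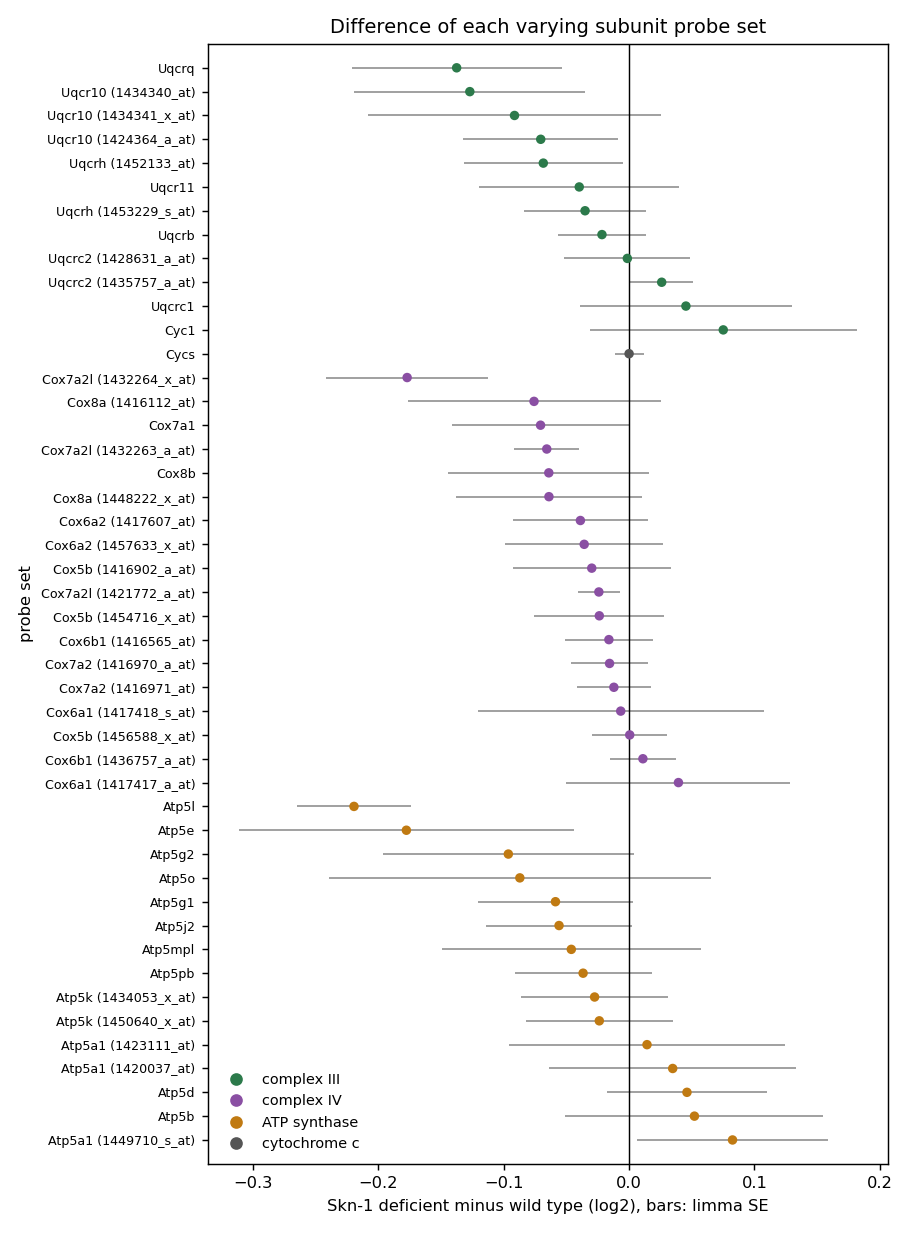
Difference between Skn-1 deficient and wild type muscle (horizontal axis, log2) for each of the 46 varying subunit probe sets (vertical axis), coloured by complex, with bars of 1 standard error from limma. Points left of the zero line number 34, and Atp5l at -0.22 lies farthest from it relative to its bar.

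Atp5l encodes subunit g of the ATP synthase membrane part, one of the small subunits at the contact between 2 synthases of a dimer. Its probe set 1448203_at read 12.23, 12.22, 12.20, 12.21 and 12.10 in KO1 to KO5, and 12.49, 12.27, 12.40, 12.40 and 12.50 in WT1 to WT5. Every deficient array lay below every wild type array, a separation without overlap seen in 3.96% of all varying probe sets, in 0.596% with deficient muscle lower, and in no other varying subunit probe set. The mean was 12.19 ± 0.052 (SD, n = 5) in Skn-1 deficient and 12.41 ± 0.090 (SD, n = 5) in wild type muscle. The difference was -0.22 ± 0.045 (SE), which is 1.16-fold more in wild type if the scale is log2 (unadjusted p of 0.00113, adjusted p = 0.179 by limma). It ran from -0.25 to -0.18 over all alternatives. The lowest adjusted p among them was 0.0788, without WT2 (limma). In a fit with an intensity trend and robust variance settings, though, the SE rose to 0.31 and the unadjusted p became 0.497 (limma).

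The gene lies on chromosome 9, as Pou2f3 does, 38 protein-coding genes after it. A probe set of Ube4a, the next gene with a varying probe set, had a difference of -0.37 ± 0.12 (SE; unadjusted p of 0.0158, adjusted p = 0.557 by limma). The line arose on a mixed background, and whether a segment of 129 origin bears on Atp5l was not tested. The next varying genes on that side, Cd3g and Cd3d, encode T cell receptor partners. They differed by -0.079 ± 0.40 and 0.0015 ± 0.40 (SE) between the groups. These errors exceed the size of the Ube4a difference, so Cd3g and Cd3d do not show whether the region differs. The other subunit genes on chromosome 9 are farther away. Cox5a, 181 genes from Pou2f3, had low-variation probe sets only. Cox7a2, 386 genes away, and Uqcrc1, 632 genes away, are described with their complexes, and their differences were within the spread between arrays.

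Cox7a2l has 3 varying probe sets, and all 3 had a lower mean in Skn-1 deficient muscle. Probe set 1432264_x_at read 9.51, 9.57, 9.74, 9.62 and 9.81 in KO1 to KO5, and 9.89, 9.79, 9.93, 9.72 and 9.80 in WT1 to WT5. KO3 and KO5 reached into the wild type range, and the difference was -0.18 ± 0.064 (SE; unadjusted p of 0.0241, adjusted p = 0.633 by limma). Probe set 1432263_a_at read 9.81, 9.73, 9.79, 9.76 and 9.80 against 9.91, 9.83, 9.87, 9.77 and 9.85. Here WT4 fell among the deficient arrays, and the difference was -0.066 ± 0.026 (SE; unadjusted p of 0.0337, adjusted p = 0.694 by limma). The third, 1421772_a_at, read 9.93, 9.89, 9.90, 9.93 and 9.94 against 9.98, 9.92, 9.97, 9.90 and 9.95. Its groups overlapped widely, with a difference of -0.024 ± 0.017 (SE; adjusted p = 0.926 by limma). The probe sets belong to 1 gene and are not independent measurements. Without the 2 lymphocyte arrays the first 2 differences were -0.19 and -0.065, and without the 5 arrays that carried lymphocyte or epidermis genes they were -0.12 and -0.057.

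**Figure D2:**
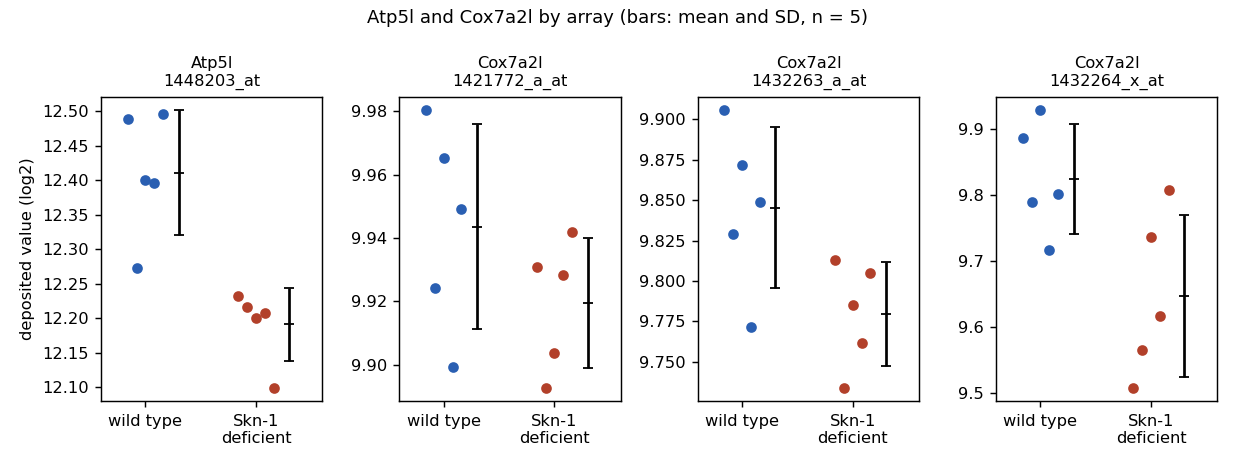
Deposited values (vertical axis, log2, not starting at 0 and scaled for each panel) of Atp5l and the 3 Cox7a2l probe sets in 5 wild type (blue) and 5 Skn-1 deficient (red) muscles, 1 point per array, with bars for the mean and SD of each group. The Atp5l groups do not overlap, while in each Cox7a2l panel at least 1 wild type array lies within the deficient range.

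Complex III was covered by 17 probe sets of 9 genes, of which 12 probe sets of 8 genes varied. Of the 12, 9 had a lower mean in Skn-1 deficient muscle and 3 a higher one, with a median of -0.037 and no unadjusted p under 0.05. The extremes were Uqcrq and Cyc1. Uqcrq encodes a small subunit next to the ubiquinone sites. It read 11.54, 11.34, 11.43, 11.30 and 11.30 in KO1 to KO5 and 11.75, 11.30, 11.53, 11.46 and 11.56 in WT1 to WT5. The groups overlapped, with the highest value in WT1, and the difference was -0.14 ± 0.084 (SE; adjusted p = 0.894 by limma).

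Cyc1 encodes cytochrome c1, the haem subunit that hands electrons to cytochrome c. Its values were 11.13, 11.25, 11.58, 11.44 and 11.61 in KO1 to KO5 and 11.13, 11.42, 11.29, 11.46 and 11.32 in WT1 to WT5. KO1 and WT1 shared the low end, KO3 and KO5 held the high end, and the difference of 0.075 ± 0.11 (SE) was below its error. Uqcrc1, a core subunit, read 11.32, 11.45, 11.60, 11.52 and 11.65 against 11.37, 11.63, 11.39, 11.61 and 11.32, with a difference of 0.045 ± 0.084 (SE). The other core subunit, Uqcrc2, had 1 probe set at 0.026 and another at -0.0013. All 3 probe sets of Uqcr10 (-0.070, -0.091 and -0.13) and both of the hinge protein gene Uqcrh (-0.035 and -0.068) had lower means in deficient muscle, with an adjusted p of at least 0.932 (limma). Cytochrome c itself (Cycs) had 1 varying probe set of 4, with a mean of 12.08 in both groups and a difference of 0.000044 ± 0.012 (SE).

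ATP synthase was covered by 31 probe sets of 17 genes, of which 15 probe sets of 12 genes varied, 10 with a lower and 5 with a higher mean in deficient muscle (median -0.037). All 5 higher ones belong to genes of F1, counted here with its central stalk: 3 probe sets of Atp5a1 (alpha subunit), Atp5b (catalytic beta subunit) and Atp5d (delta subunit). Of the F1 genes only Atp5e, the epsilon subunit, was lower, and Atp5c1 (gamma) was low-variation. The 3 varying Atp5a1 probe sets had differences of 0.083, 0.035 and 0.014, with an adjusted p of at least 0.954 (limma). The first of them, 1449710_s_at, read 12.06, 12.14, 12.32, 12.35 and 12.32 in KO1 to KO5 and 12.02, 12.25, 12.07, 12.30 and 12.12 in WT1 to WT5, so that the groups covered nearly the same range. Atp5b read 11.38, 11.53, 11.75, 11.68 and 11.78 in KO1 to KO5 and 11.33, 11.65, 11.59, 11.78 and 11.52 in WT1 to WT5. Its difference was 0.052 ± 0.10 (SE), and without WT1 it was -0.0095.

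All varying genes of the peripheral stalk and membrane part (Fo) were lower on average: Atp5l, Atp5g2 and Atp5g1 (c-ring subunits), Atp5o, Atp5j2, Atp5k, Atp5mpl and Atp5pb, but apart from Atp5l none had an unadjusted p under 0.05. The 9 lower means of this group and the split within F1 held under quantile normalization. Both centrings shifted every difference down by the same amount, so they could not turn a lower mean. After centring on varying probe sets 1 of the 5 higher F1 probe sets turned lower. Without WT1 the split was 6 lower and 3 higher in the peripheral stalk and membrane part, and 3 and 3 in F1. Atp5e had the next lowest mean difference after Atp5l, -0.18 ± 0.13 (SE; adjusted p = 0.935 by limma). It read 12.20, 11.95, 11.94, 11.99 and 11.83 in KO1 to KO5 and 12.57, 11.90, 12.14, 11.92 and 12.26 in WT1 to WT5. The wild type arrays alone spanned more than the deficient ones, and WT1 was again the highest.

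Complex IV was covered by 35 probe sets of 17 genes, of which 18 probe sets of 9 genes varied, 15 with a lower and 3 with a higher mean in deficient muscle (median -0.027). The extremes were Cox7a2l, described above, and Cox6a1 at 0.039. Cox6b1, a subunit on the cytochrome c side, had differences of -0.016 and 0.011. Cox5b, which binds zinc, had -0.030, -0.024 and 0.00055 in its 3 varying probe sets. In all 3 complexes together, 12 genes had more than 1 varying probe set. The probe sets shared a sign in 8 of them and disagreed in Cox5b, Cox6a1, Cox6b1 and Uqcrc2.

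Muscle-type and liver-type isoforms of complex IV were compared within each array, as the value of the muscle form minus that of the liver form, using the brightest probe set of each. Such a value is not a ratio of the 2 RNAs, since probes differ in brightness, but it can be compared between genotypes. No pair differed between genotypes beyond the spread between arrays. Cox6a2 minus Cox6a1 was 1.35 ± 0.15 (SD, n = 5) in Skn-1 deficient and 1.43 ± 0.22 (SD, n = 5) in wild type muscle, a difference of -0.078 ± 0.12 (SE; exact two-sided permutation p = 0.532, adjusted p = 0.798 over 3 pairs). Cox7a1 minus Cox7a2 was -0.98 ± 0.055 and -0.92 ± 0.084 (SD, n = 5 each), a difference of -0.055 ± 0.045 (SE; exact two-sided permutation p = 0.270, adjusted p = 0.798). Cox8b minus Cox8a was 2.76 ± 0.14 and 2.76 ± 0.18 (SD, n = 5 each), a difference of -0.00012 ± 0.10 (SE; exact two-sided permutation p = 1). With 5 arrays against 5, the smallest p this test allows is 0.00794. A p above the threshold does not show that the balance of isoforms was the same.

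The isoform genes themselves showed where the array differences lay. Cox6a2 (1417607_at) read 12.64, 12.57, 12.45, 12.59 and 12.48 in KO1 to KO5 and 12.75, 12.54, 12.51, 12.54 and 12.58 in WT1 to WT5. Cox7a1 read 11.51, 11.54, 11.52, 11.45 and 11.36 against 11.78, 11.46, 11.46, 11.44 and 11.60. Cox8b read 12.17, 12.11, 12.02, 12.07 and 11.96 against 12.40, 11.97, 12.06, 12.05 and 12.16. All 3 muscle forms were highest in WT1, their groups overlapped, and their differences were -0.039 ± 0.054, -0.071 ± 0.070 and -0.064 ± 0.080 (SE). Without WT1 those of Cox6a2 and Cox8b were 0.0020 and 0.0038.

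Cox7a2, a liver-type form, followed the muscle forms. Its brighter probe set read 12.46, 12.46, 12.47, 12.47 and 12.41 in KO1 to KO5 and 12.58, 12.43, 12.41, 12.45 and 12.48 in WT1 to WT5, with the highest value in WT1 and a difference of -0.016 ± 0.031 (SE). Its other probe set read 11.26 to 11.33 in deficient and 11.26 to 11.41 in wild type arrays, with a difference of -0.012 ± 0.029 (SE).

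The liver-type genes Cox6a1 and Cox8a had another order of arrays. Cox6a1 (1417417_a_at) read 11.14, 11.25, 11.02, 11.19 and 11.38 in KO1 to KO5 and 11.04, 11.21, 11.37, 10.97 and 11.19 in WT1 to WT5. Its second probe set read 9.13, 9.24, 9.12, 9.31 and 9.51 against 9.11, 9.13, 9.59, 9.15 and 9.36. Cox8a (1416112_at) read 9.14, 9.20, 9.13, 9.37 and 9.38 against 9.38, 9.06, 9.59, 9.22 and 9.34. The brighter Cox8a probe set, 1448222_x_at, which entered the isoform difference, read 9.26, 9.28, 9.20, 9.40 and 9.39 against 9.40, 9.20, 9.57, 9.25 and 9.43. There WT3 was again the highest, but KO4, WT1 and WT5 lay above KO5. In both Cox6a1 probe sets and in Cox8a 1416112_at, KO5 and WT3 lay above the other 8 arrays. This held for 12.7% of all varying probe sets and for no other subunit probe set. KO5 and WT3 carried lymphocyte genes and had the highest adipocyte genes. The part of those cells in the isoform values was not tested. Without KO5 and WT3 the Cox6a2 minus Cox6a1 difference between genotypes was -0.088 (exact two-sided permutation p = 0.400).

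**Figure D3:**
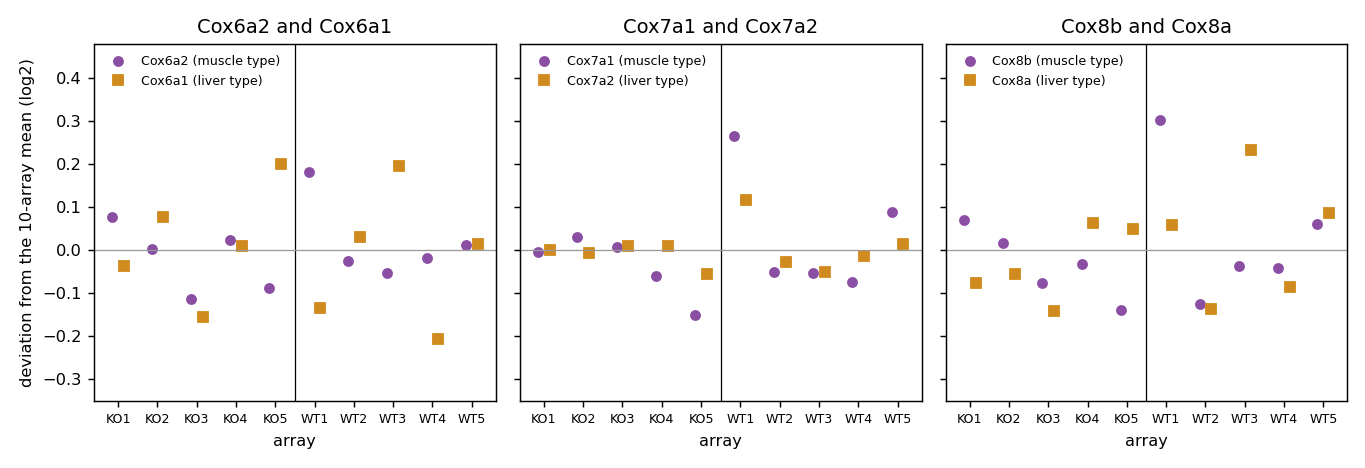
Deviation of each array from the 10-array mean (vertical axis, log2) for the muscle-type (circles) and liver-type (squares) isoform of 3 complex IV subunits, by array (horizontal axis, KO1 to KO5 and WT1 to WT5). WT1 is the highest array of Cox6a2, Cox7a1 and Cox8b, whereas Cox6a1 is highest in KO5 and WT3.

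Over the 10 arrays many subunits had an order opposite to that of Atp5b. Of the 45 other varying subunit probe sets, 7 had a correlation above 0.7 with Atp5b, those of Cyc1, Uqcrc1, Uqcrc2 (both), Atp5a1 (2 of 3) and Atp5d. This share is close to the 12.2% of all varying probe sets that had one, and the count was 9 without WT1. Those most like Atp5b were Cyc1 (r = 0.951) and Atp5a1 (r = 0.918 and 0.911). Another 21 of 45 had a correlation below -0.7 with Atp5b, against 6.64% of all varying probe sets, and 13 of 45 did without WT1. These include Cox8b, Cox7a1, Uqcrh, Atp5e, Atp5g2 and Uqcr10. Of Uqcr10, probe sets 1424364_a_at and 1434341_x_at passed, but 1434340_at did not (r = -0.578). With Cox8b, 24 of 45 had a correlation above 0.7, against 9.39% of all varying probe sets. The most alike were Atp5g2 (r = 0.972) and Uqcr10 (r = 0.961). Without WT1 this count was 13. The shares over all varying probe sets were computed on all 10 arrays, so the counts without WT1 have no such share beside them.

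The Atp5a1 probe sets did not share a pattern. Probe sets 1449710_s_at and 1423111_at followed Atp5b, whereas 1420037_at, with a mean of 7.62, correlated with it at -0.762. Atp5l passed 0.7 in size with neither gene, with r = -0.469 to Atp5b and r = 0.627 to Cox8b. KO5 was the lowest array for 20 of the 46 varying subunit probe sets (6.46% of all varying probe sets), while Atp5b, Cyc1, Uqcrc1 and Atp5a1 1423111_at had their highest value there.

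**Figure D4:**
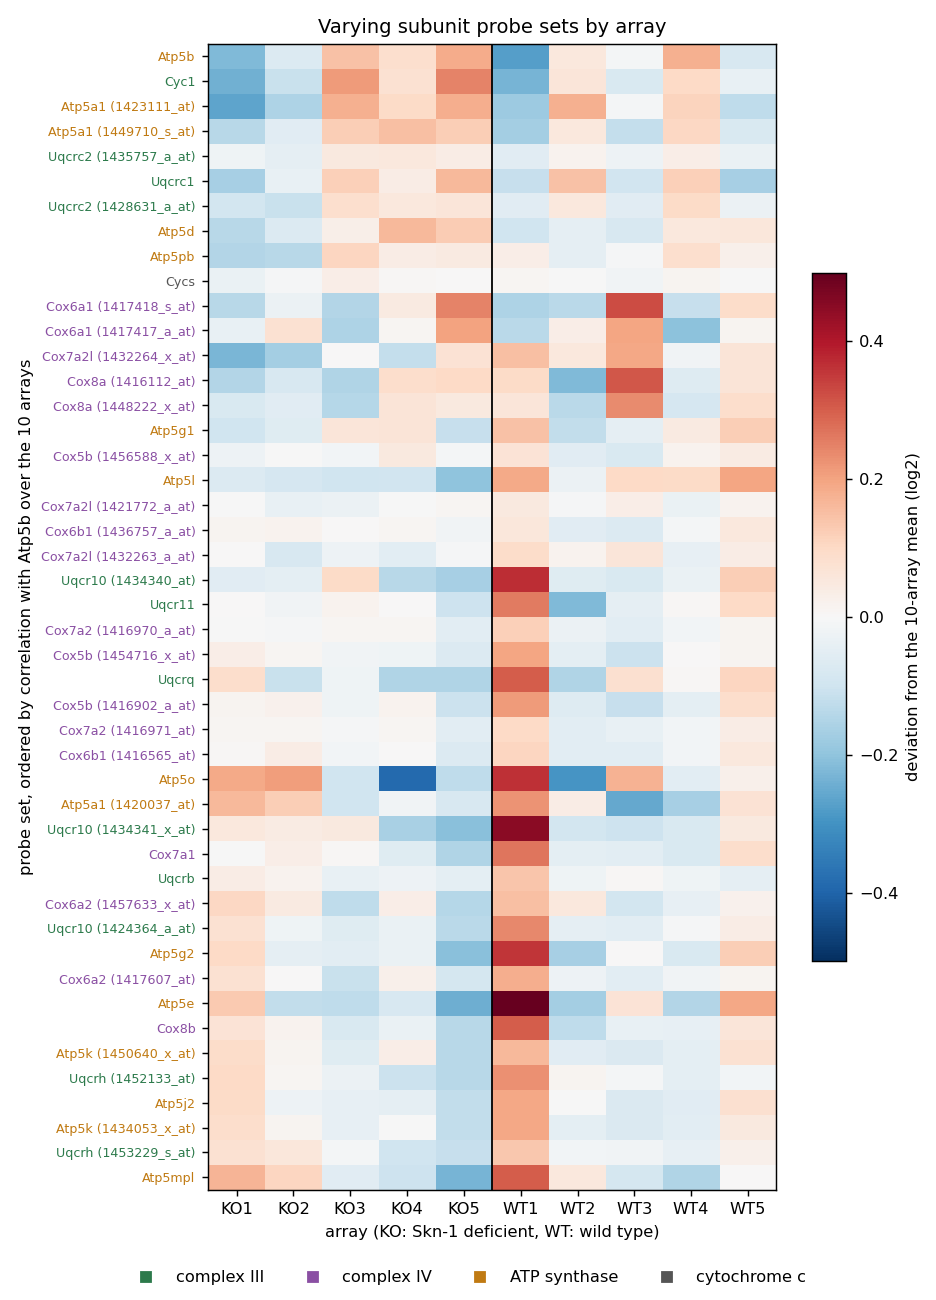
Deviation of every array (columns) from the 10-array mean (colour, log2) for the 46 varying subunit probe sets (rows, names coloured by complex), ordered by their correlation with Atp5b. The rows at the top, led by Atp5b and Cyc1, are low in KO1 and WT1, and most rows of the lower part are highest in WT1 and low in KO5.

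Atp5b and Cox8b, the genes taken to stand for the patterns after the values were seen, correlated at r = -0.859 and rho = -0.891 over the 10 arrays. These correlations describe genes chosen for their patterns, so no test is given. Leaving out KO1 and WT1, the arrays farthest from the median of Atp5b, gave r = -0.735. The relation was present within each genotype, at r = -0.956 in deficient and r = -0.881 in wild type arrays (n = 5 each, no test).

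Control probe sets of the arrays were set beside these genes, also as a description and after their values were seen. The 18S ribosomal RNA control ran from 9.29 in KO5 to 11.14 in WT1, and correlated with Cox8b at r = 0.776 (rho = 0.915) and, without KO4 and WT1, at r = 0.939. With Atp5b it was r = -0.694 (rho = -0.697), and r = -0.809 without those arrays. Of the 46 varying subunit probe sets 15 correlated above 0.7 with the 18S control, against 1.92% of all varying probe sets. Only 1 correlated below -0.7 with it, against 5.69% of all varying probe sets. These counts were not repeated without WT1, the array with the highest 18S value. The 3' minus 5' difference of the Gapdh controls, a measure of transcript intactness and labelling, correlated with Atp5b at r = -0.737 (rho = -0.782) and with Cox8b at r = 0.398 (rho = 0.576). Without KO1 and KO5, the arrays farthest from the median of the Gapdh difference, these were r = -0.568 and r = 0.225. Within genotypes (n = 5 each) the Gapdh difference correlated with Atp5b at r = -0.983 in deficient and r = -0.460 in wild type arrays, and with Cox8b at r = 0.981 and r = 0.132. The 18S control correlated with Cox8b at r = 0.787 in deficient and r = 0.934 in wild type arrays, and with Atp5b at r = -0.668 and r = -0.768. The same difference of the beta-actin controls ordered the arrays otherwise. KO5 had the highest actin difference (0.82) but the lowest Gapdh difference (0.32), while KO3 and WT4 were low in both (actin 0.33 in each). Correlations with the actin difference were not computed, so the Gapdh values alone do not show that transcript intactness followed the patterns. The part of RNA quality or labelling in the patterns was not tested.

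**Figure D5:**
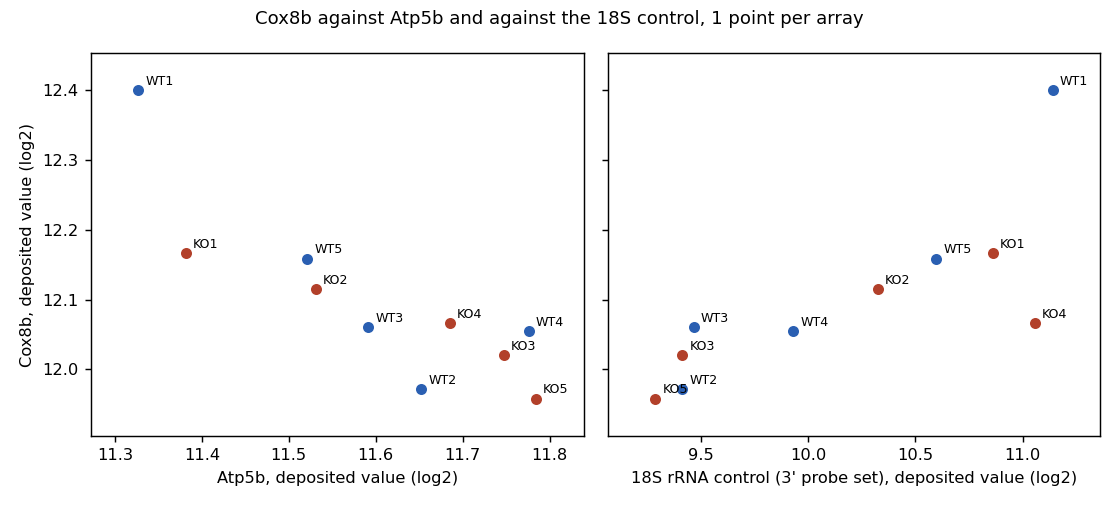
Deposited value of Cox8b (vertical axes, log2) against that of Atp5b (left, log2) and against the 18S ribosomal RNA control (right, log2), 1 labelled point per array, Skn-1 deficient in red and wild type in blue. Cox8b is highest in WT1, where Atp5b is lowest and the 18S control highest, and lowest in KO5.

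Other genes of respiration were counted in the same way. Complex I, which feeds electrons from NADH into the chain, had 39 varying probe sets of 77, 26 with a lower and 13 with a higher mean in deficient muscle (median -0.028). Complex II, which feeds them from succinate, had 4 varying probe sets of 9, 1 lower and 3 higher (median 0.033). These 4 cover 3 genes, too few to read a direction from. Of 37 assembly and partner genes of the 3 complexes 33 were measured, with 20 varying probe sets, 14 lower and 6 higher. Over all varying probe sets 50.8% were lower, and the counts of these lists were not repeated without WT1. In none of these lists did a probe set have an adjusted p under 0.05 (limma). At an unadjusted p under 0.05 there were 1 for complex I, 1 for complex II and 3 for the assembly genes, all low-variation probe sets.

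Regulators of respiratory genes were measured for all 13 genes listed, with 9 varying probe sets, 7 higher and 2 lower in deficient muscle, and none past the adjusted threshold. Of these 7, 5 belong to Ppargc1a, the coactivator PGC-1alpha, which is induced in muscle by exercise and fasting. Its differences ran from 0.60 to 0.99, with unadjusted p from 0.0237 to 0.0616 and adjusted p of at least 0.633 (limma). The brightest read 7.61, 8.22, 8.53, 9.78 and 8.82 in KO1 to KO5 and 7.56, 7.53, 7.84, 7.75 and 7.32 in WT1 to WT5. KO1 lay in the wild type range and KO4 was the highest.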

How the data were processed

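Gene expression was measured on Affymetrix mouse genome arrays, from 100 ng of total RNA labelled with biotin by a 3' IVT kit, per the labels' protocols. The authors deposited 1 table of processed values, taken here as log2 from their range (4.93 to 13.96), since the table does not state the base. How they were normalized is not given in the sources used here. Array medians of 6.23 to 6.24 rest mostly on low-variation probe sets and do not show how the varying ones were scaled. The median of the varying probe sets deviated from its mean over the arrays by -0.093 to 0.050. Values were used as deposited. Precision is limited by the number of arrays.

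Of 45101 rows, 64 controls of the array were not tested. Symbols came from the platform annotation (34945 probe sets with 1 symbol, 932 with several, 9160 unnamed) and gene order from a RefSeq table of GRCm38.p6. The genotype fit used limma 3.58.1 (lmFit, then eBayes with no trend, in R 4.3.3), and p-values were adjusted by Benjamini-Hochberg over 45037 probe sets. Within-array isoform differences were compared by exact two-sided permutation (252 splits) and correlations over the arrays are given without a test. The limma fit was tried on simulated data of varying probe sets only. The differences put in were larger than any of the subunits, so the trial does not cover differences of their size.

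Values in every array were given for varying members with an unadjusted p under 0.05, the 6 isoform genes, varying members on chromosome 9 and the extremes of each complex. Atp5b, Atp5e and the control probe sets were named after their values were seen. The members and lists were chosen with earlier results of these data known. Alternatives covered normalization, filters, the eBayes settings, weights for arrays, a replicate block, a slow-fibre covariate, the choice of probe sets and each array left out. Leaving out the 2 arrays with lymphocyte genes, or the 5 with lymphocyte or epidermis genes, was added after seeing the data. Promoters were searched with Python 3.11.15.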

Additional observations from a re-analysis of the deposited data

Results flagged for a closer look

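In 4 of 42 groups of 5 arrays (18 named probe sets and the 3 isoform differences, in each genotype) 1 array stood apart from the other 4 by more than Dixon's 95% critical value of 0.71 for the gap over the range. Chance flags about 1 group in 20. Of the 4, 3 concern KO5. Atp5l in Skn-1 deficient muscle was 12.10 in KO5, with the next array at 12.20. Without KO5 its difference between genotypes was -0.20. Cox7a2 was 12.41 in KO5 (1416970_a_at, next array 12.46) and 11.26 in KO5 (1416971_at, next array 11.31). Cox6a2 (1417607_at) in wild type muscle was 12.75 in WT1, with the next array at 12.58, and without WT1 its difference was 0.0020.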

How the results depend on the processing

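No subunit probe set passed the adjusted threshold in any of 23 alternatives, and 0 of 378 alternatives of the 18 named probe sets gave an adjusted p under 0.05. The count of 4 at an unadjusted p under 0.05 became 2 after centring on the median of varying probe sets, with an intensity trend and robust settings, with varying probe sets only and without Cox7a2l, 1 with a single probe set per gene and 0 without the 5 arrays that carried lymphocyte or epidermis genes. Leaving out 1 array in turn gave 1 to 5, with 1 without KO2 or WT1 and 2 without KO4, WT3 or WT5. Causes of these changes were not tested, except that fewer probe sets or arrays enter some of them. Without the 5 arrays only KO2 and KO3 remained against WT2, WT4 and WT5. The median difference of -0.032 ran from -0.052 to -0.00033, and the count of 34 lower means from 23 to 38.

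Signs turned in 20 of the 378 alternatives of named probe sets, and the cause was not tested. Without the 5 arrays, differences became -0.011 for Atp5b, 0.031 for Cox7a1, 0.012 and 0.013 for Cox7a2, 0.0059 for Cox8b, and 0.019 and 0.060 for the pairs Cox7a1 minus Cox7a2 and Cox8b minus Cox8a. Without the 2 lymphocyte arrays they became -0.0076 for Uqcrc1 and 0.011 for Cox6a1 (1417418_s_at). The latter was 0.022 with the slow-fibre covariate. Quantile normalization gave 0.0025 for Cox7a2 (1416971_at) and 0.0086 for Cox8b minus Cox8a, which was 0.0058 with means over probe sets. With single arrays left out, Atp5b ran from -0.0095 to 0.11, Cox6a1 from -0.0071 to 0.093 and from -0.070 to 0.074, Cox6a2 from -0.063 to 0.0020, Cox7a2 from -0.030 to 0.012 and from -0.027 to 0.011, Cox8b from -0.10 to 0.0038 and Cox8b minus Cox8a from -0.068 to 0.061.

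Same-numbered arrays deviated together with correlations of -0.400 to 0.322, so the numbers were not used as pairs. With the replicate number as a block, 0 probe sets passed the adjusted threshold, 6 had an unadjusted p under 0.05, 34 had a lower mean, and Atp5l had an adjusted p of 0.513 (limma). Low-variation probe sets, 41 of 87, limit what can be said, and 14 genes had no others.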
